A study of Homo sapiens with 7 samples.

Results

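The upstream antisense transcription start sites (uaTSSs) described here lay 201 to 400 nt upstream of the gene TSS that they share an identifier with, read on the strand of the gene. They were chosen by the called distance alone, so their distances are given as a description. They numbered 1802 of the 5519 uaTSSs called in the series, or 32.7%, and accompanied 17.3% of the 10391 called gene TSSs. They belonged to 1791 named genes on 23 chromosomes, and 899 of their gene TSSs were on the plus strand. In HNRNPF, 3 gene TSSs had a uaTSS in this range, and in the other 8 repeated genes, 2 did.

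The cells were T47D/A1-2, labelled T-47D, a T47D-derived luminal breast cancer line engineered with 2 additions, extra glucocorticoid receptor of the rat and a luciferase gene under the mouse mammary tumor virus promoter. All cells were grown in 10% fetal bovine serum and then moved to 5% charcoal dextran-stripped serum for at least 24 h, and no treatment group was compared. TSS calls came from Start-seq replicate 1, which maps capped 5′ ends of short nuclear RNA to single nucleotides, and expression came from 3 RNA-seq replicates merged into 1 FPKM value per gene, a read count scaled by gene length and library size. The second Start-seq replicate and the nucleosome and open chromatin assays of the study were not analysed here.

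Most active mammalian promoters initiate RNA in both directions. A first polymerase makes the gene's RNA, and a second, loaded at its own core promoter on the opposite strand, makes an upstream antisense RNA that is usually short, ends at an early polyadenylation signal and is degraded by the nuclear exosome. The DNA between the 2 start sites is generally depleted of nucleosomes and holds binding sites for transcription factors. A downstream antisense TSS (daTSS) lies inside the gene and points back at the gene TSS, so that its RNA converges on the gene's own. The authors placed a uaTSS at the position with the most antisense 5′ ends within 1000 nt upstream, and a daTSS likewise within 2000 nt downstream, with at least 5 reads required at a position. They then removed daTSSs that could be the antisense partner of an uncalled gene TSS, judged by sense reads upstream of the daTSS, or that lay near an annotated start on the same strand, so the daTSS shares below depend on that filter.

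Every call had a score of 0 and no read count was given, so the depth behind each call is unknown. The intervals given below are exact 95% Clopper-Pearson intervals for shares and exact 95% order-statistic intervals for medians. They cover the counting of calls in 1 library only. No comparison between distance ranges was tested, because there is no replicate of the calls or of the FPKM, and the uaTSSs of the other ranges are shown to give the background. Luminal markers were high in the RNA, from 44.1 FPKM for the estrogen receptor gene ESR1 to 1142 for KRT8, whereas KRT5 and KRT14 were listed at 0 and the other 3 basal or mesenchymal markers and PTPRC, a blood cell gene, lay at or below 0.864 FPKM.

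Promoter sequences are printed to show what lay between the 2 start sites. Each runs 5′ to 3′ on the strand of the gene, in hg19 coordinates read from GRCh37, from 5 nt beyond the uaTSS to 5 nt past the gene TSS. Capitals mark the 2 bases at positions -1 and +1 of each start site and every match to the GC box GGGCGG or the CCAAT box on either strand, so that a match on the other strand reads CCGCCC or ATTGG. Since the uaTSS runs leftward, its own start pair is the reverse complement of the first 2 capitals. ACTL6A, RPL23, RPL35 and ENO1 were shown by rule. Their stretches end 20 nt into the first protein-coding exon annotated upstream of the gene TSS, before the gene TSS itself. They stop 21, 88, 31 and 100 nt before it, so boxes in the remainder are not shown. The RPL35 stretch held 39 nt of exon in all, and its uaTSS lay 18 nt from an annotated start of another gene, ARPC5L. PRPF19, GINS2, HSP90AA1 and HSP90AB1 were added after their values were seen, because no more than 30 nt of annotated protein-coding exon fell in their windows.
ACTL6A promoter, chr3:179280447-179280693, plus strand: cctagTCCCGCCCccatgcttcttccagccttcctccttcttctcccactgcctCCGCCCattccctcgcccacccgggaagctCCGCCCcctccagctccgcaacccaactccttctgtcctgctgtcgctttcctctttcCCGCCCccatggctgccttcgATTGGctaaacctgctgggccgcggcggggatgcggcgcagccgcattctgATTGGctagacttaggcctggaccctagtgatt
RPL23 promoter, chr17:37009998-37010148, minus strand: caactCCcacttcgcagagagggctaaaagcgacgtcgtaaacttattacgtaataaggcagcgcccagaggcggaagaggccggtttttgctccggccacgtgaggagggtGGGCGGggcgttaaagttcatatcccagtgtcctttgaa
RPL35 promoter, chr9:127624241-127624432, minus strand: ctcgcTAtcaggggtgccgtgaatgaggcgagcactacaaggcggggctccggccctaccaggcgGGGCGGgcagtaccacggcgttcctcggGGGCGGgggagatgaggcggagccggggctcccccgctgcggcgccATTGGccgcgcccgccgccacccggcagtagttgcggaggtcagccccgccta
ENO1 promoter, chr1:8939230-8939390, minus strand: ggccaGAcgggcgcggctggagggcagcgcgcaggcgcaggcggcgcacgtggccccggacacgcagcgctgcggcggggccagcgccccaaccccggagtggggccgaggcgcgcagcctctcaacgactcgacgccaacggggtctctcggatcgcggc
PRPF19 promoter, chr11:60674052-60674277, minus strand: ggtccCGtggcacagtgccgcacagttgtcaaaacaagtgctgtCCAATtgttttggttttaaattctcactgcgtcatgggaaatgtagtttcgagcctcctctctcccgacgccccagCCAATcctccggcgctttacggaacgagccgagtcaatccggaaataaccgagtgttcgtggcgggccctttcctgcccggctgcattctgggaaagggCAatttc
GINS2 promoter, chr16:85722535-85722813, minus strand: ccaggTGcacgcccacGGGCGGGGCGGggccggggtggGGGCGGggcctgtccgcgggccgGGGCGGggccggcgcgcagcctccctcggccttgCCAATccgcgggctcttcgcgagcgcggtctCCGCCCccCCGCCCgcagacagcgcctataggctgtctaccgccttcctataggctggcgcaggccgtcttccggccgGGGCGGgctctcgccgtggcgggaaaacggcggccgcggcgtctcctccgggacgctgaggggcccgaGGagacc
HSP90AA1 promoter, chr14:102553376-102553654, minus strand: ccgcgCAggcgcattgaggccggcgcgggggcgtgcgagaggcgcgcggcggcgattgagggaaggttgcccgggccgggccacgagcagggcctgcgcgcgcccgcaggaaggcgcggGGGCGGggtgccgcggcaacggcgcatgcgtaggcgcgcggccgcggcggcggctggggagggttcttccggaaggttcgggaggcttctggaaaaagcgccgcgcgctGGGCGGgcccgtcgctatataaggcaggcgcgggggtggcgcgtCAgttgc
HSP90AB1 promoter, chr6:44214624-44214843, plus strand: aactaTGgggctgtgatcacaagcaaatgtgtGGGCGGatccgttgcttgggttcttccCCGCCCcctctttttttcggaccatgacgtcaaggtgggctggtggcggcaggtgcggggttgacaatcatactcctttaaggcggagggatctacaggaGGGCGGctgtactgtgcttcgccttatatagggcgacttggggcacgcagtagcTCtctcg

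The printed promoters differed widely in composition. The ACTL6A stretch held 4 GC boxes and 2 CCAAT boxes, all on the strand opposite to the gene, with the CCAAT boxes on the side of the gene TSS. GINS2 held 7 GC boxes, 5 of them on the gene strand, and 1 CCAAT box. PRPF19 held 2 CCAAT boxes and no GC box, with 1 box within 100 nt of each start site. The ENO1 stretch, which stops 100 nt before the gene TSS, held neither word at 78.9% GC. The 100 nt upstream of the ENO1 gene TSS, not printed, did hold a GC box. The range of GC content in the 8 printed stretches was 54.9% in PRPF19 to 78.9% in ENO1.

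The start sites themselves are shown for 6 members, chosen after their values were seen. Each line gives 30 nt on the strand of the uaTSS, 20 nt before and 10 nt from the start, with positions -1 and +1 in capitals. The first 4 have a CA start followed by any base and then A or T, the initiator word CANW, and the last 2 lack a pyrimidine before a purine.
KRT19 uaTSS, chr17:39684844-39684873, plus strand: cacccctgtccctggaagcCAcattctgag
PSMD2 uaTSS, chr3:184016728-184016757, minus strand: tgtggggtttgggttcgctCActgctgtag
HSP90AB1 uaTSS, chr6:44214620-44214649, minus strand: ttgcttgtgatcacagcccCAtagtttcac
CBX3 uaTSS, chr7:26241052-26241081, minus strand: cagcctcagcggctggcgcCAaaaccggac
ACTL6A uaTSS, chr3:179280443-179280472, minus strand: ggaagaagcatgggggcggGActaggaggt
RPL23 uaTSS, chr17:37010123-37010152, plus strand: tagccctctctgcgaagtgGGagttgaggt

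The members formed the falling side of the distance distribution. Their median distance was 273 nt with quartiles at 233 and 326 nt, against a median of 200 nt over all uaTSSs. The number of uaTSSs fell from 650 at 201 to 250 nt to 490 at 251 to 300 nt, 377 at 301 to 350 nt and 285 at 351 to 400 nt. The limits of the range cut through this slope. At 200 nt, just outside, 18 uaTSSs were called, and at 201 nt, just inside, 17. At 400 nt there were 3, and at 401 nt there were 4. PTMS, encoding parathymosin, and TIMMDC1, an assembly factor of respiratory complex I, were the members with the highest FPKM at 201 nt, at 160.5 and 75.2 FPKM. CTNNB1, encoding beta-catenin, and ETFB, encoding an electron transfer flavoprotein subunit, sat at 200 nt with 115 and 84.8 FPKM. At the upper limit, VCL, encoding the focal adhesion protein vinculin, and the small GTPase gene RAB36 were at 400 nt with 44.9 and 2.89 FPKM, and the cyclophilin gene PPIB and the dynein light chain gene TCTEX1D2 were at 401 nt with 283 and 103 FPKM.

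ACTL6A, which encodes an actin-related subunit of the SWI/SNF chromatin remodelling complex, had all 3 kinds of start site. Its gene TSS lay on the plus strand of chromosome 3 at 179280714 and coincided with an annotated transcript start. The uaTSS was called 262 nt upstream at 179280452, outside every annotated transcript. The daTSS was called 689 nt downstream, in an intron. A CpG island ran from 351 nt upstream to 749 nt downstream and held all 3 start sites. ACTL6A had 162 FPKM, well above the third quartile of the members.

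Of the 6 members with a daTSS and the highest FPKM, CFL1 led with 964 FPKM. CFL1 encodes cofilin, which severs actin filaments, and had a uaTSS at 286 nt and a daTSS at 1116 nt in an intron. RPL23, RPL35 and RPL19, which encode proteins of the large ribosomal subunit, had 694, 617 and 569.7 FPKM. Their uaTSSs lay 233, 217 and 338 nt upstream, and their daTSSs lay 171, 390 and 990 nt downstream, all in exons. TMBIM6, which encodes an endoplasmic reticulum membrane protein that restrains cell death, had 640.1 FPKM, a uaTSS at 317 nt and a daTSS at 646 nt in an exon. COX8A, a subunit of cytochrome c oxidase, had 599.7 FPKM, a uaTSS at 349 nt and a daTSS at 461 nt in an intron. These 6 daTSSs thus spread from 171 to 1116 nt. Ribosomal protein genes have many processed pseudogenes, so the FPKM of a single member is uncertain.

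The 6 members without a daTSS and with the highest FPKM reached similar levels. HSPB1, encoding a small heat shock protein, had 1049 FPKM, the highest of all members, and a uaTSS at 329 nt. KRT19, a luminal keratin, had 936 FPKM with a uaTSS at 304 nt. ATP5B, the catalytic subunit of mitochondrial ATP synthase, had 809 FPKM with a uaTSS at 302 nt. The glycolytic enzyme gene ENO1 and the alpha-tubulin gene TUBA1B followed with 712 and 706 FPKM and uaTSSs at 255 and 307 nt. AGR2, which encodes a secretory pathway protein disulfide isomerase, had 613 FPKM and a uaTSS at 398 nt. AGR2 was the only one of these 12 genes whose gene TSS lay outside a CpG island, and the sequence between its start sites had 39.3% GC.

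A daTSS was called at 621 of the 1802 member gene TSSs, or 34.5% (interval 32.3% to 36.7%), beside 32.9% over all uaTSSs. The share was 28.3% for uaTSSs at 1 to 80 nt (24.7% to 32.2%), 33.2% at 81 to 200 nt (31.2% to 35.2%) and 32.0% at 401 to 1000 nt (29.0% to 35.1%). The members' interval overlapped those of both neighbouring ranges and lay above that of uaTSSs at 1 to 80 nt. Within the members, the share was 34.5% at 201 to 250 nt, 34.3% at 251 to 300 nt, 31.8% at 301 to 350 nt and 38.2% at 351 to 400 nt, again with overlapping intervals. Gene TSSs without a uaTSS had a daTSS in 23.4% of cases. Of these gene TSSs, 20.6% had another gene TSS called in the antisense direction within 1000 nt upstream, beside 1.89% of members. They are thus not all promoters without upstream antisense initiation.

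The daTSSs of members had a larger median distance than those of the nearer uaTSSs. Their median distance from the gene TSS was 539 nt (495 to 586 nt, n = 621), against 460.5 nt (442 to 486 nt, n = 728) at 81 to 200 nt and 427 nt (382 to 493 nt, n = 163) at 1 to 80 nt. It did not stand apart from 508 nt (443 to 565 nt, n = 303) at 401 to 1000 nt, nor from 546 nt (508 to 578 nt, n = 1141) at gene TSSs without a uaTSS. In the members, 24.8% of daTSSs lay at 301 to 500 nt (21.4% to 28.4%) and 15.5% beyond 1000 nt (12.7% to 18.5%), whereas at 81 to 200 nt the shares were 31.6% (28.2% to 35.1%) and 9.75% (7.70% to 12.1%). Over daTSSs up to 1000 nt alone, the medians were 466 nt (443 to 495 nt) in members and 433 nt (417 to 452 nt) at 81 to 200 nt, so that these intervals overlapped, and 403 nt (355 to 435 nt) at 1 to 80 nt. Across the 621 members with both antisense TSSs, Spearman's rho between the 2 distances was 0.07, a description across sites that share 1 library. The span from uaTSS to daTSS had a median of 823 nt with quartiles at 623 and 1120 nt. Of the 621 daTSSs, 390 (62.8%) lay in an intron, 221 (35.6%) in an exon and 10 (1.61%) outside the annotated gene. The shares over all uaTSSs with a daTSS were close, at 61.5%, 36.6% and 1.82%.

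**Figure D1:**
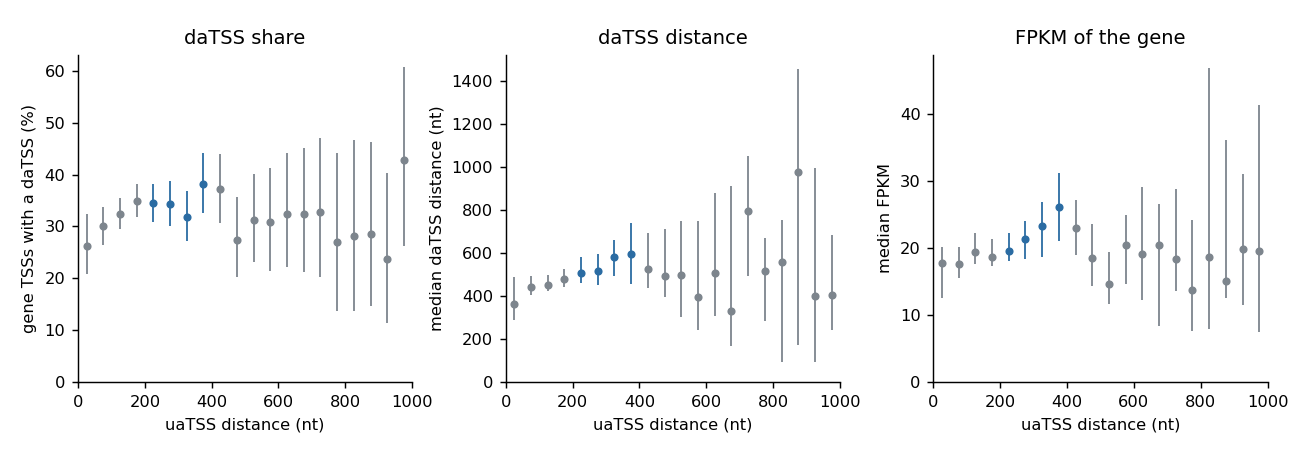
Share of gene TSSs with a daTSS in percent, median daTSS distance in nt and median FPKM, each in bins of 50 nt of the uaTSS distance. Points are bins, bars are exact 95% intervals, and blue points are the 4 bins from 201 to 400 nt. The median FPKM of the blue points runs from 19.6 to 26.2, and the median daTSS distance from 507 to 598 nt, with overlapping bars.

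The genes of members were expressed at a median of 21.5 FPKM (19.9 to 23.4, n = 1786) with quartiles at 8.70 and 49.2 FPKM. The median was 18.8 FPKM (17.8 to 20.8) at 81 to 200 nt, 17.5 FPKM (14.7 to 19.4) at 1 to 80 nt and 19.2 FPKM (16.7 to 21.1) at 401 to 1000 nt. The members' interval overlapped that of each neighbouring range and lay above that of uaTSSs at 1 to 80 nt. On the log2(FPKM + 0.1) scale, the median of the members was 0.20 above that of all other uaTSSs. Gene TSSs without a uaTSS had a median of 13.7 FPKM (13.0 to 14.5). Members with a daTSS had 24.7 FPKM (21.5 to 27.6, n = 616) and members without one 20.3 FPKM (18.1 to 22.2, n = 1170). An FPKM belongs to the whole gene and not to 1 of its start sites.

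Expression of members ran from 0 to 1049 FPKM, beside a maximum of 1194 over all gene TSSs. At least 100 FPKM was reached by 203 of the 1786, or 11.4%, beside 10.2% over all uaTSSs, and 51, or 2.86%, lay under 1 FPKM, beside 3.34% over all uaTSSs. The lowest values above 0 were 0.00359 FPKM for PRDM9, which encodes the histone methyltransferase that marks meiotic recombination sites, 0.0119 for the zinc finger gene ZSCAN10 and 0.0237 for CCDC83. The gene TSS assigned to ZSCAN10 lay 872 nt from the nearest annotated start of that gene, so its FPKM may not belong to that TSS. The uaTSSs of these 3 lay 293, 227 and 237 nt upstream, and none had a daTSS. MFAP3L and FAM156A, with uaTSSs at 229 and 206 nt, were listed at 0.

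Most members sat in CpG islands, stretches rich in unmethylated CpG at which most housekeeping promoters lie. Of the 1802 member gene TSSs, 1640, or 91.0% (89.6% to 92.3%), lay in an island of over 200 bp, beside 87.9% over all uaTSSs. The share was 87.8% (86.3% to 89.1%) at 81 to 200 nt and 84.8% (82.3% to 87.0%) at 401 to 1000 nt, and both intervals lay below that of the members. The uaTSS itself lay in the same island in 69.4% of members, beside 70.5% over all uaTSSs, which include nearer sites that have less distance to cover.

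The island reached further upstream in members than in the nearer ranges, and further still at 401 to 1000 nt. In members, the island extended a median of 407 nt upstream of the gene TSS (395 to 420 nt), against 304 nt (266 to 348 nt) at 1 to 80 nt, 293 nt (277 to 305 nt) at 81 to 200 nt and 617 nt (595 to 660 nt) at 401 to 1000 nt. The median upstream reach was 349 nt (336 to 364 nt) at gene TSSs without a uaTSS. Downstream of the gene TSS, the medians were closer, with 514 nt (495 to 531 nt) in members and 472 nt (458 to 487 nt) at 81 to 200 nt. In 1071 of the 1640 members in an island, or 65.3%, the uaTSS lay within 250 nt of the upstream island edge, inside or outside it, beside 61.3% over all uaTSSs. Among named members the islands of CFL1, at 2945 nt, and POLR2H, at 1933 nt, reached far past the uaTSS, whereas those of KRT19, at 39 nt, and ATP5B, at 64 nt, ended close to the gene TSS. Where both antisense TSSs were called at a member in an island, both lay inside it in 240 of 578 cases, or 41.5%, beside 44.1% over all uaTSSs.

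The sequence between uaTSS and gene TSS had a mean GC content of 68.5% ± 8.40 (SD over 1802 sites). The mean was 69.3% ± 8.57 at 81 to 200 nt and 66.4% ± 8.30 at 401 to 1000 nt. The medians were 68.9% in members (68.4% to 69.3%), 70% at 81 to 200 nt (69.5% to 70.4%) and 67.1% at 401 to 1000 nt (66.5% to 67.7%), with intervals that did not overlap. At 1 to 80 nt the median was 69.6% (68.7% to 70.6%), an interval that did overlap that of the members. The mean over all other uaTSSs was 68.5%. GC content changed across the uaTSS. In members it averaged 67.0% in the 100 nt upstream of the uaTSS, which face the gene, and 60.4% in the 100 nt downstream, away from the gene. At the gene TSS the 100 nt upstream and downstream averaged 70.1% and 68.0%.

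A pyrimidine at -1 and a purine at +1, the core of the initiator element, was found at 1177 member uaTSSs, or 65.3% (63.1% to 67.5%), beside 64.7% over all uaTSSs. The same pair occurred at 22.6% of members when read 50 nt downstream. At the members' gene TSSs the share was 67.3%. Adenine was at +1 in 45.7% of member uaTSSs and guanine in 36.0%, beside 45.2% and 35.0% over all uaTSSs. CANW was present at 18.4% of member uaTSSs, beside 18.6% over all uaTSSs, and at 18.5% of the members' gene TSSs. Both start sites of a member had the pyrimidine-purine pair in 43.7% of cases, beside 42.8% over all uaTSSs. Of the 36 named members, 25 had the pair at the uaTSS and 10 had CANW.

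TATA boxes were rare on the antisense side. TATAW, with W for A or T, starting 24 to 35 nt upstream on the strand of the RNA, was found at 14 member uaTSSs, or 0.777% (0.425% to 1.30%), and at 61 member gene TSSs, or 3.39% (2.60% to 4.33%). It was found at 0.670% of all uaTSSs and at 3.0% of all gene TSSs.

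The GC box GGGCGG, the word bound by SP1-family factors, was found on either strand in the 100 nt upstream of 887 member uaTSSs, or 49.2% (46.9% to 51.6%), beside 49.4% over all uaTSSs. Upstream of the members' gene TSSs the share was 54.5%, and over all gene TSSs it was 50.2%. These windows, also used for the other upstream words below, face each other and just do not overlap in members. They overlap at distances under 200 nt, where 1 match counts for both TSSs. Under 100 nt, the window of the uaTSS also runs past the gene TSS into the gene. In members, a GC box lay upstream of the gene TSS in 57.7% of the cases with one upstream of the uaTSS, and in 51.5% of the cases without.

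CCAAT, the word bound by NF-Y, was found upstream of 358 member uaTSSs, or 19.9% (18.0% to 21.8%), beside 17.3% over all uaTSSs. With the window overlap described above, the share was 17.9% at 81 to 200 nt (16.3% to 19.6%) and 7.12% at 1 to 80 nt (5.16% to 9.53%). At 401 to 1000 nt, without such overlap, the share was 17.1% (14.8% to 19.7%), an interval that overlapped that of the members. Upstream of gene TSSs it was 22.0% in members (20.1% to 24.0%) and 18.7% over all gene TSSs. In members, CCAAT matches peaked 61 to 80 nt upstream of the gene TSS, with 9.60 matches per 100 sites against 0.888 in the first 20 nt. Upstream of the uaTSS there were 7.05 matches per 100 sites at 61 to 80 nt and 8.77 at 121 to 140 nt. Beyond the first 100 nt, these positions can lie inside the 100 nt upstream of the gene TSS, so the same box can count for both start sites. A CCAAT box lay upstream of both TSSs in 128 members, which is 35.8% (30.8% to 41%) of the members with one upstream of the uaTSS. Where the uaTSS side had none, the gene side had one in 18.6% (16.6% to 20.7%). PRPF19, printed above, is one of these 128 promoters. At 401 to 1000 nt, the corresponding shares were 21.6% (15.5% to 28.7%) and 17.2% (14.6% to 20.0%).

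CCGGAAG, the word bound by ETS factors such as GABPA, was less frequent. It was found upstream of 122 member uaTSSs, or 6.77% (5.65% to 8.03%), beside 10.8% over all uaTSSs. The share was 14.4% (12.9% to 15.9%) at 81 to 200 nt and 18.1% (15% to 21.4%) at 1 to 80 nt, both above the members' interval, and 5.60% (4.22% to 7.26%) at 401 to 1000 nt. Up to 200 nt the window overlaps that of the gene TSS, so these shares are not those of the uaTSS side alone. Upstream of gene TSSs, CCGGAAG was found at 9.54% of members (8.23% to 11.0%), beside 11.3% over all gene TSSs. There it was found at 16.9% at 81 to 200 nt, 6.34% at 401 to 1000 nt and 9.89% (9.07% to 10.8%) without a uaTSS. The fall came before the lower limit of the members, from 16.2% at 101 to 150 nt to 8.69% at 151 to 200 nt and 6.92% at 201 to 250 nt. The CREB word TGACGTCA was found upstream of 0.943% of member uaTSSs (0.551% to 1.51%) and 2.73% at 81 to 200 nt (2.09% to 3.51%). The NRF1 word GCATGCGC was found at 2.39% (1.73% to 3.20%) and 4.38% (3.56% to 5.32%). At 401 to 1000 nt, the interval was 0.435% to 1.80% for the CREB word and 1.05% to 2.86% for the NRF1 word. Both overlapped the members' intervals and lay below those at 81 to 200 nt. The word AAGATGGC of YY1 was found upstream of 1.11% of member uaTSSs, beside 1.29% over all uaTSSs, and TTTCCCGC of E2F upstream of 1.33%, beside 1.09%.

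**Figure D2:**
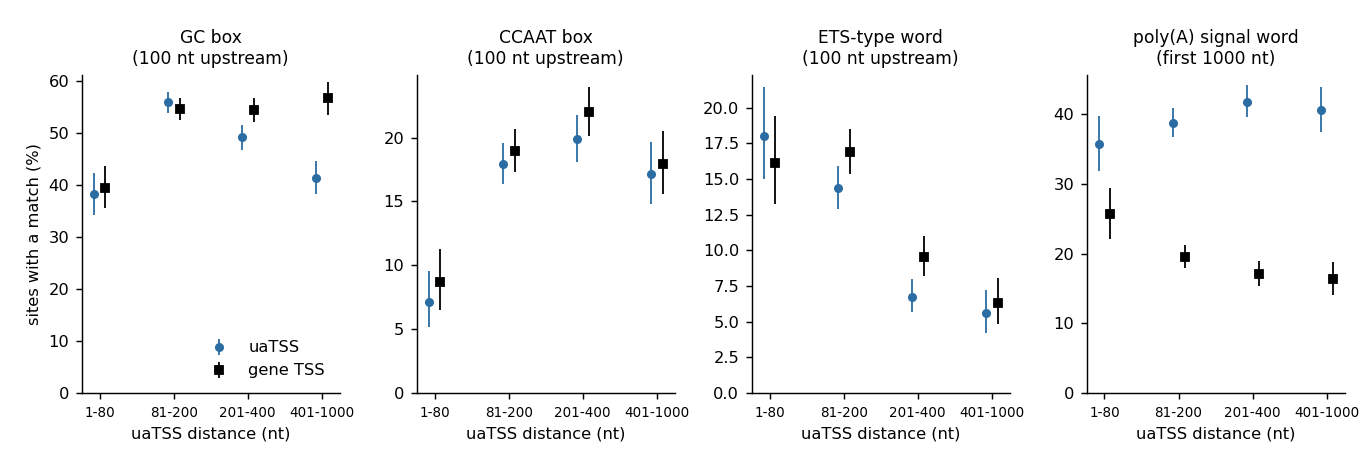
Share of sites in percent with a GC box, a CCAAT box or the ETS word in the 100 nt upstream, and with a poly(A) signal word in the first 1000 nt, for uaTSSs (blue circles) and gene TSSs (black squares) in 4 ranges of uaTSS distance. Bars are exact 95% intervals. The ETS word falls from 18.1% to 5.60% of uaTSSs across the ranges, the CCAAT box is at 19.9% in the members, and the poly(A) word is more frequent from the uaTSS than from the gene TSS in every range.

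Polyadenylation signal words lay in the first 1000 nt of genomic sequence at a larger share of uaTSSs than of gene TSSs. How far the RNAs reached was not measured. AATAAA was found on the RNA strand in the first 1000 nt from 754 member uaTSSs, or 41.8% (39.6% to 44.2%), beside 39.8% over all uaTSSs. In the gene direction it was found in the first 1000 nt from 17.1% (15.4% to 19%) of member gene TSSs. The 5′ splice site word GGTAAG, which U1 snRNP recognises, showed the opposite order, with 13.1% (11.6% to 14.7%) on the antisense side and 21.8% (19.9% to 23.8%) on the gene side. Both orders held in the other 3 ranges too. The GC content of the 2 directions also differed beside these results, as given above, and its part in them was not tested.

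An annotated transcript start on the strand of the uaTSS lay within 100 nt of 351 member uaTSSs, or 19.5% (17.7% to 21.4%), beside 20.5% over all uaTSSs. At 111 members (6.16%), at least 1 such start belonged to a protein-coding gene. Where none did, a long noncoding RNA started there at 230 members (12.8%), and only another gene type at 10. Over all uaTSSs the long noncoding and protein-coding shares were 12.5% and 7.43%. Protein-coding starts were more frequent for the nearer uaTSSs, with 11.3% (8.82% to 14.2%) at 1 to 80 nt and 8.84% (7.69% to 10.1%) at 81 to 200 nt, against the members' interval of 5.09% to 7.37%. At 34 members, or 1.89%, another gene TSS was called in the antisense direction within the 1000 nt upstream, beside 3.52% over all uaTSSs. Most member uaTSSs, 1278 or 70.9%, lay in no annotated transcript of their own strand, beside 69.5% over all uaTSSs. On the strand of the gene, 233 (12.9%) lay in an exon and 431 (23.9%) in an intron, where other transcripts start further upstream. Over all uaTSSs these shares were 15.9% and 23.2%.

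Some member uaTSSs thus lay at the annotated start of a second protein-coding gene. The uaTSS at 308 nt from CBX3, which encodes the heterochromatin protein HP1 gamma and had 138 FPKM, lay 40 nt from the start of HNRNPA2B1, an RNA-binding protein gene with 298 FPKM. The uaTSS of the condensin gene NCAPD2, with 43.0 FPKM, lay 54 nt from the start of the mitochondrial ribosomal protein gene MRPL51, with 209 FPKM. The uaTSSs of PRADC1, at 23.1 FPKM, and GMPR2, at 32.5 FPKM, lay 48 nt from the chaperonin gene CCT7, at 167 FPKM, and 18 nt from the ubiquitin-like gene NEDD8, at 150.1 FPKM. The uaTSS of the septin gene SEPTIN2, at 80.8 FPKM, coincided with the start of HDLBP, at 127 FPKM. These 5 were named because their antisense partner was the most highly expressed. Over the 76 of 111 members whose annotated protein-coding partner had an FPKM, the partner's median was 25.7 FPKM (16.1 to 31.1). Only 24 of the 230 members with a long noncoding partner had an FPKM for it, with a median of 0.751 FPKM (0.268 to 7.17). CSTF3-DT, opposite the cleavage stimulation factor gene CSTF3, was at 0.172.

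Members were found in each of the 14 gene lists examined, which together held 100 member gene TSSs. Among genes of immediate early and stress response, 12 of 43 gene TSSs were members, or 27.9% (15.3% to 43.7%), the highest share of any list, beside 17.3% over all gene TSSs. The lowest share was that of oxidative phosphorylation subunits, with 8 of 73, or 11.0% (4.85% to 20.5%). Each of the 14 intervals held 17.3%.

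The stress and immediate early members covered chaperones and transcription factors, and 5 of the 12 had a daTSS. The chaperone genes HSP90AA1 and HSP90AB1 had 549 and 507 FPKM, uaTSSs at 268 and 209 nt and no daTSS. The endoplasmic reticulum chaperone gene HSPA5 had 199.98 FPKM and a uaTSS at 336 nt, also without a daTSS. The cochaperone gene DNAJB1 had 75.5 FPKM and a daTSS at 475 nt. Those encoding the transcription factors JUN, KLF4 and KLF6 had 6.85, 4.80 and 7.74 FPKM and daTSSs at 743, 1194 and 1763 nt, whereas ATF4, ATF3 and KLF10 had 133, 14.4 and 10.3 FPKM and no daTSS. BTG1, which restrains proliferation, had 26.9 FPKM and a daTSS at 905 nt. HSPA1A received no FPKM and has a near-identical copy, so its calls are uncertain. The members of this list other than HSP90AA1 and HSP90AB1 were named after their values were seen.

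Of the luminal breast and hormone response genes, 7 of 34 gene TSSs were members, with a median of 360.4 FPKM against 119 FPKM for the whole list. Beside KRT19 and AGR2 these were KRT18 at 555 FPKM, the luminal transcription factor gene GATA3 at 360.4, ELF5 at 135, ELF3 at 44.1 and ESR1 at 44.1. GATA3, ELF5 and ESR1 had daTSSs, at 587, 622 and 1236 nt. KRT18, GATA3, ELF5, ELF3 and ESR1 were named after their values were seen.

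After the luminal list, the highest list medians were those of housekeeping genes, with 321 FPKM for oxidative phosphorylation members and 286 FPKM for cytosolic ribosomal protein members. The 15 cytosolic ribosomal protein members ran from 0.601 FPKM for RPL36A to 694 for RPL23, and 6 of them had a daTSS. The 8 oxidative phosphorylation members ran from 109 FPKM for ATP5L to 809 for ATP5B, and 2 had a daTSS. None of the 7 proteasome members had a daTSS. PSMD2, a base subunit of the regulatory particle, led them with 303 FPKM and a uaTSS at 320 nt. None of the 5 members among histone deacetylase and promoter mark enzymes had a daTSS either, and HDAC1 led with 139.9 FPKM and a uaTSS at 308 nt. With 7 and 5 gene TSSs, a count of 0 leaves the share in these lists poorly defined. RPL36A and ATP5L were named after their values were seen.

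Genes that act in transcription and RNA processing were also among the members. NELFCD, a subunit of the negative elongation factor that holds paused polymerase, had 85.5 FPKM, a uaTSS at 210 nt and a daTSS at 745 nt. POLR2H, a subunit common to the 3 nuclear RNA polymerases, had 183 FPKM, a uaTSS at 210 nt and no daTSS. CSTF3, which acts in cleavage at polyadenylation sites, had 84.3 FPKM and a uaTSS at 244 nt. PRPF19, a spliceosomal ubiquitin ligase, had 210.3 FPKM, a uaTSS at 215 nt and a daTSS at 448 nt. WDR61, a subunit of the PAF1 and SKI complexes, had 43.3 FPKM, a uaTSS at 292 nt and a daTSS at 406 nt, and its gene TSS lay outside a CpG island. ACTL6A was the highest of the 4 SWI/SNF and remodelling members, which ran down to 41.3 FPKM.

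Genes of DNA replication and repair closed the set. GINS2, a subunit of the replicative helicase, had 252 FPKM, a uaTSS at 268 nt and a daTSS at 1209 nt in an exon. XRCC5, which encodes the Ku80 end-joining protein, had 162 FPKM, a uaTSS at 259 nt and a daTSS at 404 nt. A daTSS was called at 5 of the 9 cell cycle and replication members and at 3 of the 6 DNA repair members, counts too small to set against the 34.5% of all members.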

How the data were processed

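The authors trimmed Start-seq reads with cutadapt 1.2.1, aligned them to hg19 with Bowtie 0.12.8 and deposited 3 lists of single-nucleotide TSS positions, with no read counts. The deposited expression values are FPKM, which the authors estimated with TopHat2 2.0.4 and Cufflinks 2.2.1 from 3 merged RNA-seq replicates. Lists were joined by identifier, and distances were read on the gene strand. Gene names came from transcript starts within 1000 nt in GENCODE 44 lifted to GRCh37, from protein-coding genes where present. The nearest gene with an FPKM was taken, with readthrough names last, or the nearest gene where none had an FPKM. FPKM was joined by current or older symbol for 1786 of 1802 members. Among the symbols with FPKM, 28 had turned into dates. CpG islands had over 200 bp, at least 50% GC and a CpG ratio (observed to expected) above 0.6, from a running score of 17 per CpG. Motifs were exact words on both strands, except that TATA, initiator, polyadenylation and splice site words were read on the RNA strand. The log2 scale used a pseudocount of 0.1. Computations used Python 3.11.15, numpy 2.4.6, scipy 1.17.1 and pysam 0.24.0, and were tested on simulated data.

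Members, gene lists and rules were chosen with earlier results of these data known. Named were ACTL6A, the 6 highest FPKM with and without a daTSS, the highest in each list (2 in lists of at least 10 members), members and neighbours at both limits, the 5 highest antisense partners and the 3 lowest FPKM. Sequences were due for ACTL6A and up to 3 of each 6 with at most 280 nt between the start sites. The ETS, CREB, NRF1, YY1 and E2F words were added later. The alternatives changed the limits, neighbouring or repeated gene TSSs, windows, words, islands, the FPKM minimum and the pseudocount. As fixed, no test was run, because neither the calls nor the FPKM had replicates.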

Additional observations from a re-analysis of the deposited data

How the results depend on the processing

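Of 67 recomputed values with a 95% interval, 55 stayed within the interval of the value reported and 12 left it. The mean GC content, given with no such interval, ran from 68.2% to 68.7% over its 5 alternatives. Counting daTSSs only up to 1000 nt gave a daTSS share of 29.1% and a median distance of 466 nt, and the members' interval for that distance then overlapped that of uaTSSs at 81 to 200 nt. Stricter islands, over 500 bp with at least 55% GC, held 81.1% of member gene TSSs. The initiator share was 74.3% with the pair allowed 1 nt to either side and 28.3% for CA. The GC box share was 63.3% in 150 nt and 31.2% in 60 nt upstream of the uaTSS. Annotated antisense starts were found at 17.2% of members with no other gene TSS within 5000 nt, at 15.1% within 50 nt and at 25.2% within 250 nt. The polyadenylation word was found at 56.8% with ATTAAA counted too, and at 20.4% in the first 500 nt. All 12 changes follow from what each setting counts or leaves out.

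The members stood on the other side of the remaining uaTSSs in 6 cases, 2 each for GC content, initiator and GC box. The GC box share was below that of the remaining uaTSSs in 60 nt, 31.2% against 34.5%, and above it in 150 nt, 63.3% against 58.6%. With 1 gene TSS per symbol, 97 of the 100 list members remained. The difference in median log2 FPKM was 0.20 with either pseudocount, 0.1 or 1. The alternatives for the CCAAT box, the ETS word and the shared island were added after the data were seen, and all 15 stayed within the interval. The recomputed values draw on largely the same sites as the values reported, so staying within an interval is no independent check. No paired analysis was possible because the calls come from 1 library, the FPKM column merges its replicates, and no result comes from a test. Leaving out a replicate was not possible for the same reason. The unknown depth of the calls limits which weaker antisense start sites could be found.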
